A study of Mus musculus with 12 samples.

Results

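The 10 genes described here encode receptors of the mouse cell surface, most of them for growth factors. Among them are the insulin-like growth factor (IGF) and insulin receptors Igf1r, Insr and Igf2r and the fibroblast growth factor (FGF) receptors Fgfr1 and Fgfr2. The others are Pdgfra, Met, Axl, Tek and the collagen receptor Ddr1. The genes were taken by gene symbol, and all 10 were found among the 14852 genes of the expression table. Of 19049 peaks of N4-acetylcytidine (ac4C), a form of cytidine made in RNA by the acetyltransferase NAT10, 30 were assigned to 9 of them. The group was labelled as receptor tyrosine kinases outside the EGF receptor family, which holds for 9 of the 10, since Igf2r has no kinase domain.

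The cells were ID8, an established mouse ovarian cancer line that grew out of ovarian surface epithelium, in 4 groups of 3 libraries: cisplatin input, cisplatin ac4C immunoprecipitate (IP), control input and control IP. Cisplatin is a platinum drug that crosslinks DNA, and the labels call the other cells control without a dose, a vehicle or a time for either. Levels per library were available for the 6 input libraries, and the IP libraries enter through a table of peaks in which all libraries are joined in 1 comparison. Levels are FPKM, fragments scaled to transcript length and library depth, so they can be set beside each other between genes. The input values corresponded to 21752961 to 29687163 fragments in listed genes for cisplatin and 20134902 to 21336306 for control. Whether replicates came from separate cultures is not labelled, so p-values measure the spread between libraries, which may be technical. ID8 is 1 line, and in bulk RNA fewer expressing cells cannot be told apart from less RNA per cell.

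Receptor tyrosine kinases are single-pass membrane proteins, many but not all of which pair only when a ligand binds. Once active, they phosphorylate each other on tyrosines and recruit adaptors such as GRB2, SHC1 and the GAB and IRS proteins. These adaptors pass the signal to the RAS and MAP kinase cascade and to PI3 kinase and AKT, which drive growth and survival. In ovarian cancer, AXL and MET have been studied for their part in invasion and drug resistance, and IGF1R for survival signalling. IGF2R works differently: it carries mannose 6-phosphate tagged enzymes to lysosomes and takes up IGF2 for degradation.

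Cisplatin-treated cells held less RNA of Igf1r, Insr, Pdgfra and Fgfr2, with levels 2.60 to 4.06 times lower than in control cells, and moderately less of Ddr1. Tek was 3.13-fold higher and Axl 1.26-fold higher, while the abundant Igf2r, Met and Fgfr1 lay within 1.12-fold of control in FPKM as deposited. FPKM over all genes summed to 275195 to 278678 in cisplatin and 258545 to 259158 in control libraries. With libraries rescaled to a common sum, the log2 changes of Igf2r, Met and Fgfr1 were -0.26, -0.23 and -0.13. With limma on log2(FPKM + 1), adjusted over 11449 tested genes, 2 members passed an adjusted p of 0.05 as higher, where 40.1% of all tested genes did. Of these, Tek reached the filter of 1 FPKM in the cisplatin libraries alone and so had to differ once tested. The 7 members that passed as lower, Igf1r, Insr, Igf2r, Fgfr2, Pdgfra, Met and Ddr1, stand beside 41.1% of all tested genes. In either direction 9 of 10 members passed, near the 81.3% of all tested genes. The cisplatin and control values did not overlap for 9 of 10 members, beside 84.2% of tested genes. Tek is counted among those 9, but its separation was fixed by how it passed the filter, so no permutation p is given for it. For each of the others an exact permutation test (two-sided, 3 libraries against 3) gave p = 0.1, and no smaller value can be had from so few libraries. The median log2 change of the 10 members was -0.31, against -0.003 over all tested genes.

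**Figure D1:**
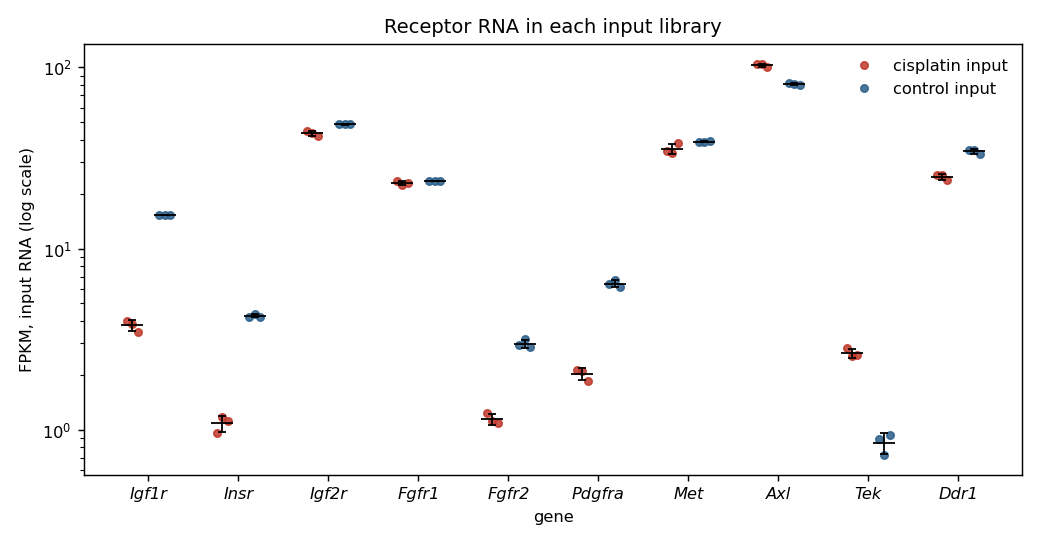
FPKM in input RNA (log axis) of each receptor gene in 3 cisplatin (red, left) and 3 control (blue, right) libraries; points are libraries and black marks the mean and SD. Axl is the highest in both groups, and the largest gaps between the groups are those of Igf1r and Insr, with means of 3.76 and 1.08 FPKM in cisplatin libraries and 15.3 and 4.25 FPKM in control libraries.

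Among the IGF and insulin receptors, Igf1r, which encodes the kinase that answers IGF1 and IGF2, had 4.00, 3.81 and 3.48 FPKM in cisplatin replicates 1, 2 and 3, against 15.3, 15.3 and 15.2 FPKM in control replicates. Every cisplatin library lay far below the control libraries, which hardly differed from each other. The means were 3.76 ± 0.264 FPKM after cisplatin and 15.3 ± 0.0378 FPKM in control (SD, n = 3, as for all means that follow), a log2 change of -1.77 (SE 0.053, adjusted p = 2.06e-07). Of all tested genes, 3.65% had a lower log2 change. Igf1r lies at chr7:67952257-68233668 (mm10) and spans 281 kb, the longest of the 10.

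Insr, the insulin receptor gene, showed 0.958, 1.18 and 1.12 FPKM in cisplatin libraries and 4.19, 4.35 and 4.21 FPKM in control libraries. The groups did not overlap, and the mean was 3.92-fold lower after cisplatin. Its mean was 1.08 ± 0.113 FPKM in cisplatin and 4.25 ± 0.0862 FPKM in control libraries, with a log2 change of -1.33 (SE 0.063, adjusted p = 1.18e-06). The log2 scale with 1 added understates changes of low genes: with voom on recovered reads the log2 change was -2.04. These levels rest on 1153 fragments over the cisplatin and 3924 over the control libraries. The ratio of Insr to Igf1r was 0.290 ± 0.0442 in cisplatin and 0.278 ± 0.00528 in control libraries, ranges that overlapped (exact two-sided permutation p = 0.7, adjusted over 4 ratios 0.7).

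Igf2r, the mannose 6-phosphate and IGF2 receptor gene, had 44.6, 43.7 and 41.7 FPKM in cisplatin libraries and 48.9, 48.5 and 48.5 FPKM in control libraries. It fell by a small amount in every cisplatin library, with a log2 change of -0.16 (SE 0.034, adjusted p = 0.00311). The size depended on the scaling, at -0.26 with libraries rescaled to a common sum and -0.32 with quantile normalization. Because Igf1r fell far more, the ratio of Igf2r to Igf1r was 11.5 ± 0.419 in cisplatin libraries and 3.18 ± 0.0154 in control libraries, without overlap (exact two-sided permutation p = 0.1, the smallest possible, and 0.133 adjusted over 4 ratios).

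The noncoding gene Airn overlaps Igf2r on the chromosome and is transcribed antisense to it, where in mouse it is known to silence the paternal copy of Igf2r. Airn measured 2.12, 1.98 and 2.28 FPKM in cisplatin libraries and 8.69, 8.48 and 8.75 FPKM in control libraries. It was 4.06-fold lower after cisplatin, with a log2 change of -1.62 (SE 0.056, adjusted p = 3.62e-07). The libraries keep the strand, but no source used here says whether the counting did, so reads from the overlap may not be separated between both genes. Airn and the Gm4577 gene beside Ddr1 are the only other listed genes that overlap a member in the RefSeq annotation of GRCm38.p6, the assembly behind mm10.

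Fgfr1 and Fgfr2 encode receptors for FGFs that share a domain plan but differ in the tissues they serve, Fgfr2 being prominent in epithelia. Fgfr1 showed 23.6, 22.6 and 22.9 FPKM in cisplatin libraries and 23.5, 23.5 and 23.7 FPKM in control libraries. These values overlapped, and the log2 change of -0.03 had a 95% interval of -0.11 to 0.04 (adjusted p = 0.367; exact permutation p = 0.3). Fgfr1 passed as lower with libraries rescaled to a common sum (-0.13, adjusted p = 0.00685), quantile normalization (-0.13, adjusted p = 0.0118) and voom on recovered reads (-0.11, adjusted p = 0.0117).

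Fgfr2 had 1.24, 1.12 and 1.09 FPKM in cisplatin libraries and 2.93, 3.15 and 2.86 FPKM in control libraries. The groups were clearly apart, with a log2 change of -0.89 (SE 0.062, adjusted p = 7.24e-06), or -1.45 with voom on recovered reads. The ratio of Fgfr2 to Fgfr1 was 0.0525, 0.0495 and 0.0476 in cisplatin libraries, below each of the control values of 0.125, 0.134 and 0.121 (exact two-sided permutation p = 0.1, and 0.133 adjusted over 4 ratios).

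Pdgfra, which encodes a receptor for platelet-derived growth factors best known from mesenchymal cells, had 2.15, 2.12 and 1.85 FPKM in cisplatin libraries and 6.41, 6.68 and 6.13 FPKM in control libraries. It was 3.14-fold lower, with a log2 change of -1.29 (SE 0.064, adjusted p = 1.50e-06) and no overlap of the groups. Ddr1, a receptor kinase gene whose product binds collagen in the matrix, measured 25.4, 25.5 and 23.9 FPKM in cisplatin libraries and 35.2, 35.1 and 33.3 FPKM in control libraries. Its log2 change was -0.45 (SE 0.041, adjusted p = 2.92e-05), smaller than that of Pdgfra.

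Met, the gene of the hepatocyte growth factor receptor, had 34.8, 33.7 and 38.1 FPKM in cisplatin libraries and 38.9, 38.8 and 39.2 FPKM in control libraries. The third cisplatin library came close to control, and the control values were tightly grouped. The log2 change was -0.13 (SE 0.048, adjusted p = 0.036). This call was lost without cisplatin replicate 1 (adjusted p = 0.103) or 2 (0.0876) and without control replicate 1 (0.0842), 2 (0.0826) or 3 (0.0954), and without cisplatin replicate 3 the adjusted p was 0.00122. The change was larger with rescaling (-0.23), quantile normalization (-0.28) and voom (-0.21).

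Axl, whose product binds the vitamin K-dependent ligand GAS6, was the most abundant member, with 104, 104 and 100.1 FPKM in cisplatin libraries and 82.3, 81.4 and 80.0 FPKM in control libraries. All cisplatin values were higher, and the log2 change was 0.33 (SE 0.031, adjusted p = 3.11e-05). Quantile normalization reduced it to 0.12 (adjusted p = 0.00755). The ratio of Axl to Met was 3.00, 3.09 and 2.62 in cisplatin libraries and 2.12, 2.10 and 2.04 in control libraries (exact two-sided permutation p = 0.1, and 0.133 adjusted over 4 ratios).

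Tek, also called Tie2, encodes the angiopoietin receptor, known mainly from endothelium. It measured 2.81, 2.55 and 2.57 FPKM in cisplatin libraries and 0.883, 0.723 and 0.931 FPKM in control libraries. The gene was the lowest of the 10 in control and the seventh in cisplatin libraries. Its log2 change was 0.98 (SE 0.069), or 1.54 with a pseudocount of 0.1 and 1.57 with voom on recovered reads. Only the cisplatin libraries reached the filter of 1 FPKM, so a gene that entered the test in this way had to differ. Its adjusted p is therefore left out. The level rests on 956 fragments in the cisplatin and 267 in the control libraries. None of the 6 endothelial markers looked for (Pecam1, Cdh5, Kdr, Tie1, Cldn5 and Emcn) has a row in the expression table used here.

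**Figure D2:**
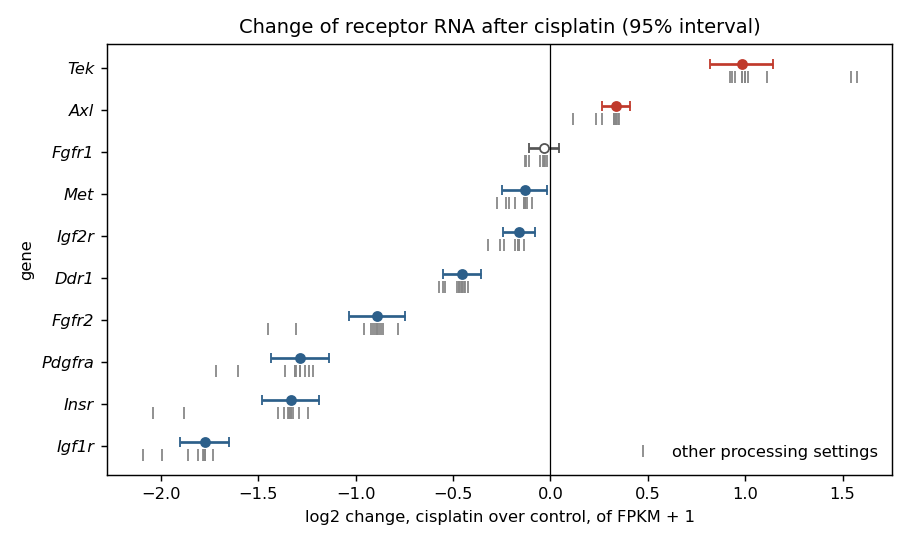
Log2 change of FPKM + 1, cisplatin over control, of each receptor in input RNA, with the 95% interval from limma (red, passed as higher; blue, passed as lower; open, did not pass); grey ticks are the changes under the other processing settings. Tek and Axl lie above 0 and Igf1r lies lowest at -1.77, and no setting moves a gene across 0.

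The order of the levels was the same in both groups for the 6 highest genes, Axl, Igf2r, Met, Ddr1, Fgfr1 and Igf1r. Each of these differed from its neighbour in the order by more than the range of the libraries. In cisplatin libraries Tek, Pdgfra, Fgfr2 and Insr followed, of which the ranges of Fgfr2 and Insr overlapped. In control libraries the last 4 were Pdgfra, Insr, Fgfr2 and Tek, without overlap between neighbours. The summed level of the 10 genes was 240.2 ± 3.51 FPKM after cisplatin and 257 ± 2.35 FPKM in control.

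Axl made up 42.8% ± 0.506 of that sum in cisplatin libraries and 31.6% ± 0.180 in control libraries. Igf1r made up 1.57% ± 0.0878 after cisplatin and 5.95% ± 0.0417 in control. Ddr1 made up 10.4% ± 0.265 after cisplatin and 13.4% ± 0.308 in control. Met stood at 14.8% ± 1.14 after cisplatin and 15.2% ± 0.217 in control, and Fgfr1 at 9.58% ± 0.160 after cisplatin and 9.19% ± 0.119 in control.

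**Figure D3:**
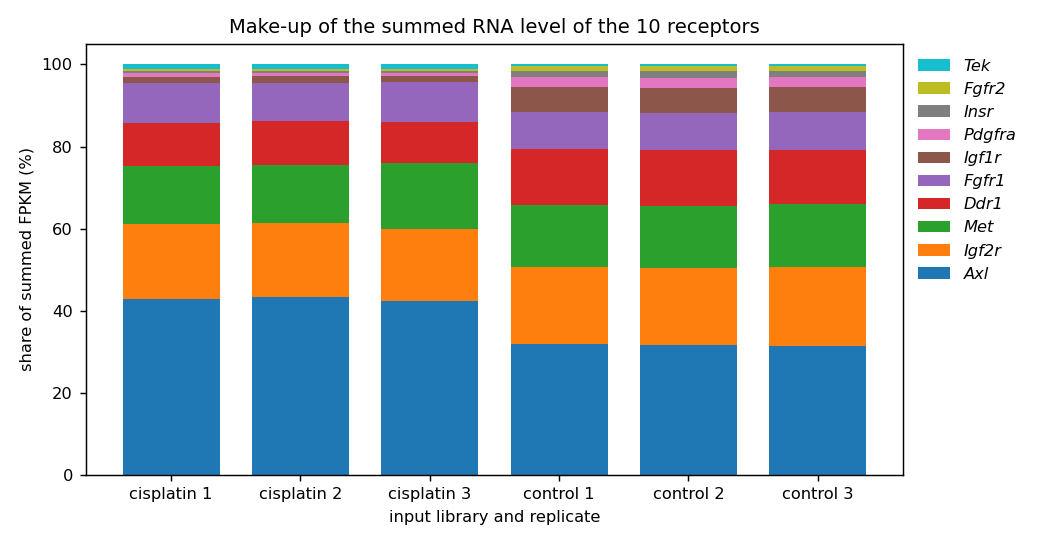
Share (%) of each receptor gene in the summed FPKM of the 10 genes, 1 bar per input library, cisplatin on the left and control on the right. The Axl share is 42.3% to 43.3% in cisplatin and 31.5% to 31.8% in control libraries, and the Igf1r band is thin in all 3 cisplatin libraries.

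The 4 most reduced genes were compared for what else they have in common. Igf1r, Insr and Fgfr2 span 281, 129 and 104 kb of the genome, and Pdgfra 46.9 kb. Of the 1193 tested genes that span 100 kb or more, 73.3% passed as lower and 13.2% as higher, with a median log2 change of -0.51. Of 2930 genes under 10 kb, 30.8% passed as lower and 49.2% as higher, with a median of 0.21. Tek spans 136 kb and was higher, and Met spans 111 kb with a log2 change of -0.13. The part of gene span in the receptors' changes was not tested.

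**Figure D4:**
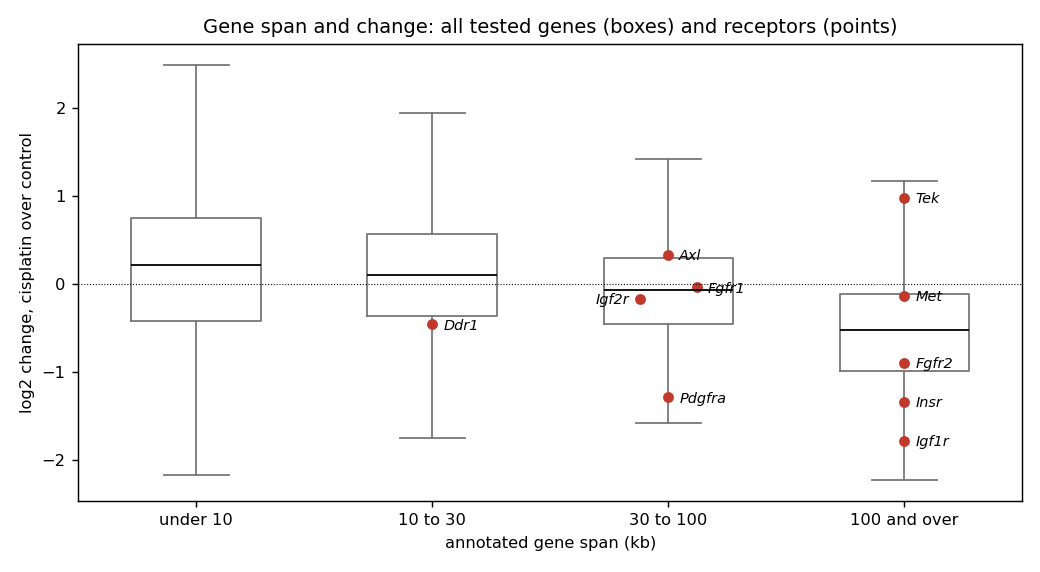
Log2 change in input RNA, cisplatin over control, by annotated gene span; boxes show the median and quartiles of all tested genes with a span (whiskers to 1.5 times the box height), and red points are the receptors. Of the 5 receptors in the longest class, Igf1r, Insr and Fgfr2 lie below the class median of -0.51, and Met and Tek above it.

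The 250 bases before an annotated start are shown for the members with the largest changes that the RefSeq promoter table of GRCm38.p6 holds, 3 that fell and 1 that rose, so that genes that fell can be read beside one that rose. Capitals mark matches on either strand to the GC box (letters GGGCGG), the core of the cyclic AMP element (letters TGACG), the CCAAT box (letters CCAAT), the TATA box (letters TATAAA) or the AP-1 element (letters TGACTCA), and no base lies in 2 matches. The windows lie at chr7:67952007-67952256, plus strand, for Igf1r, chr5:75152001-75152250, plus strand, for Pdgfra, chr7:130266809-130267058, minus strand, for Fgfr2 and chr4:94739039-94739288, plus strand, for Tek, each read 5′ to 3′ on the strand of the gene.
Igf1r: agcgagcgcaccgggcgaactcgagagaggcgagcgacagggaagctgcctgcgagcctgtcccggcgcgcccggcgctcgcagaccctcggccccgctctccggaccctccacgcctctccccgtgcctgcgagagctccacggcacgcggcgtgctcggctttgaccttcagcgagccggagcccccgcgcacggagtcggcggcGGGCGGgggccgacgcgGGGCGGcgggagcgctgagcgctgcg
Pdgfra: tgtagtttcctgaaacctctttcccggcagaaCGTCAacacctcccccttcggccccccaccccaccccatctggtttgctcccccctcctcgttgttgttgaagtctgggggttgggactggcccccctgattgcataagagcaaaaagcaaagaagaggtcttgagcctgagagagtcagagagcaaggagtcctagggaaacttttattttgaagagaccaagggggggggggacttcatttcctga
Fgfr2: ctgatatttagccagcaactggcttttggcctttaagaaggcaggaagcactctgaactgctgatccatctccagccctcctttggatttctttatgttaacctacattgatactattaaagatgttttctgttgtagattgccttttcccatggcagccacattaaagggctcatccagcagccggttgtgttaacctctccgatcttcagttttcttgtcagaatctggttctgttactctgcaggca
Tek: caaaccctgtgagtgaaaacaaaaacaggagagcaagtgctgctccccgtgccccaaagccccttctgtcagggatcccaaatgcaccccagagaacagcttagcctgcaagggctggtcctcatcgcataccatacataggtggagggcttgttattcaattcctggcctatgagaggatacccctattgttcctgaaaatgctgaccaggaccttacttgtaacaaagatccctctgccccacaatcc

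The Igf1r window had 77.6% G and C, 42 CG dinucleotides and 2 GC boxes, a motif found in 32.7% of all 32851 windows. The Pdgfra window, with 54.4% G and C and 4 CG dinucleotides, had 1 cyclic AMP element core, which 17.8% of windows hold. Neither the Fgfr2 window (44.0% G and C, 2 CG dinucleotides) nor the Tek window (51.2% and 2) held any of the motifs. The CCAAT box occurs in 33.8% of all windows, the TATA box in 12.4% and the AP-1 element in 4.46%. The 3 windows of genes that fell thus ranged on both sides of the median of 52.4% G and C and 6 CG dinucleotides. The Pdgfra window and most of the Tek window lie inside the annotated gene spans, which begin at chr5:75151322 and chr4:94739086. The Igf1r and Fgfr2 windows lie just upstream of their gene spans, so the windows are not at like positions. No ac4C peak of a member overlapped its window, for the 8 members that have one. A match is a run of letters and no proof of a bound site.

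The peak table holds regions of transcripts enriched in the ac4C IP over input, with the authors' fold enrichment, log2 difference between treatments and adjusted p. The direction of that difference is not stated, so signs are given as deposited. Of the 30 receptor peaks, 20 had an adjusted p under 0.05 in the authors' deposited table, beside 46.2% of all peaks. A positive difference was listed for 14 of them, beside 36.5% of all peaks, and a negative one for 6, beside 9.62%. The peaks lay in coding sequence (22) or 3′ untranslated regions (8). Of the coding peaks 17 passed, where 56.0% of all coding peaks did, and of the 3′ peaks 3 passed, where 36.2% of all such peaks did. Peaks of 1 transcript share its input RNA and are not independent of each other.

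Fgfr1, whose input RNA did not pass the test, had the most peaks, 7, of which 6 passed in the authors' deposited table, 4 with a positive and 2 with a negative difference. The second from the 5′ end, at chr8:25558194-25563517 over 4 exon blocks, had a log2 difference of 2.96 and a log10 adjusted p of -113 in the authors' deposited table, with a 6.46-fold enrichment. Its neighbour at chr8:25564325-25566049 had a log2 difference of -2.29 (log10 adjusted p of -26.9, authors' deposited table). Coding peaks of the same transcript thus carried opposite signs.

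All 4 peaks of Igf2r lay in coding sequence and passed in the authors' deposited table, 3 positive and 1 negative. The one nearest the 3′ end, at chr17:12683874-12685687, had a log2 difference of 5.25 and a log10 adjusted p of -251 in the authors' deposited table, the lowest of the 30 peaks, although its enrichment was only 2.30-fold. The first from the 5′ end had nearly the same difference, 5.24, with a log10 adjusted p of -18.7 and a 9.24-fold enrichment in the authors' deposited table. The negative one was listed at -2.79.

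All 5 peaks of Met passed in the authors' deposited table. From 5′ to 3′ their log2 differences were listed there as 5.95, -1.87, 4.34, -1.35 and 4.13, the last in the 3′ untranslated region and the others coding. The value of 5.95 was the largest of any receptor peak, and the fourth peak had the highest enrichment of the 30, 51.7-fold in the authors' deposited table. Differential peaks of both signs in 1 gene were found in 3 of the 4 members with at least 2 differential peaks, Met, Igf2r and Fgfr1. Over all genes with at least 2 differential peaks this held for 801 of 2100, or 38.1%. Members with a peak had a median of 4 peaks, against 2 over all genes with a peak, so these shares are not matched for peak number.

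Axl had 5 peaks, of which 3 passed in the authors' deposited table, all positive, with log2 differences of 1.27 and 2.69 in coding sequence and 2.08 in the 3′ untranslated region. Its other coding peak, which covers 5 exon blocks, was listed at -0.04 with a log10 adjusted p of -0.419. Ddr1 had 2 peaks, and the one that passed was listed at -0.75 with a 17.8-fold enrichment in the authors' deposited table.

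The genes with the largest changes of input RNA had few peaks that passed, which does not mean that the differences listed were small. Igf1r had 4 peaks, enriched 2.53-fold to 16.7-fold, and only the second passed in the authors' deposited table, with a log2 difference of 1.16 (log10 adjusted p of -2.21). Insr, Pdgfra and Tek had 1 peak each, with log2 differences of 2.32, -1.81 and 1.58, none of which passed there. Each was larger in size than the -0.75 of the Ddr1 peak that passed. The part of low RNA levels in the missing calls was not tested. No peak was listed for Fgfr2. Insr, Pdgfra, Tek and Fgfr2 are low in input RNA, and 49.9% of tested genes with a mean of 1 to 5 FPKM had a peak, and 85.5% of those at 20 FPKM or more.

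**Figure D5:**
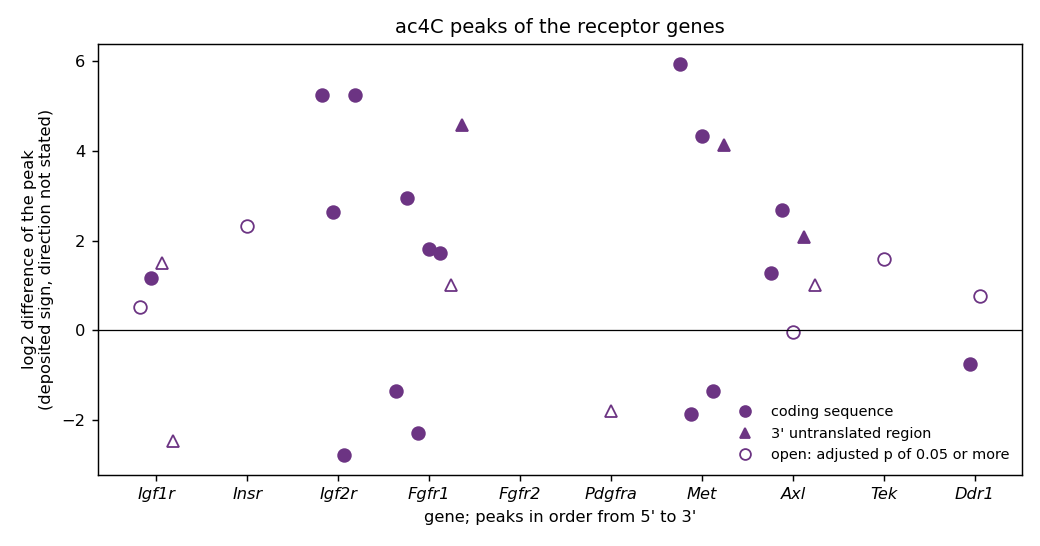
Log2 difference between treatments of each ac4C peak of the receptor genes, as deposited and without a stated direction, in order from 5′ to 3′ within a gene; circles are coding peaks, triangles peaks in 3′ untranslated regions, and open symbols did not pass the authors' adjusted p of 0.05. Fgfr1, Igf2r and Met have filled symbols on both sides of 0, and Fgfr2 has none.

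The lists of pathway genes that follow are to be read beside the 40.1% of all tested genes that passed as higher, the 41.1% that passed as lower and the 81.3% that passed in either direction. In either direction 10 of 12 ligand genes, 4 of 4 genes of IGF-binding proteins and their proteases, 11 of 12 coreceptor genes, 25 of 32 adaptor and transducer genes and 14 of 18 negative regulators passed. The same held for 8 of 10 processing and shedding genes and 12 of 13 further receptor kinase genes, so calls were common in the lists as they were in the whole table. Of the genes named from the lists, Angpt2, Fgf7, Gpc6, Gab2 and Socs2 reached the filter of 1 FPKM in libraries of 1 group only and so had to differ once tested. Their values are given without a p. They are still counted in the calls and medians of their lists, so those counts were in part fixed in advance.

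Among ligand genes 6 of 12 tested were higher and 4 lower (median log2 change 0.20), with Angpt2 and Fgf7, which had to differ, among the 6. Angpt2, which encodes a ligand of the Tek receptor, was listed at 0 in all 3 control libraries and had 1.62, 1.76 and 1.52 FPKM in cisplatin libraries. That is at least 126-fold higher against a floor of 3 reads over the control group. Fgf7, a ligand gene of the FGF family, was also listed at 0 in control, with 1.94, 2.28 and 2.78 FPKM after cisplatin, at least 158-fold higher against the same floor. Gas6, the Axl ligand gene, fell to 28.3, 28.4 and 26.9 FPKM in cisplatin libraries, against 38.4, 38.8 and 38.7 FPKM in control libraries (adjusted p = 9.93e-06). Axl and its ligand gene thus moved in opposite directions.

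The 4 tested genes of IGF-binding proteins and their proteases passed as lower (median log2 change -0.43), where 41.1% of all tested genes did. Igfbp6, whose product binds IGF2 with preference, averaged 146 ± 16.0 FPKM after cisplatin and 304 ± 6.79 FPKM in control (adjusted p = 8.32e-06). Igfbp7 averaged 95.2 ± 5.25 FPKM after cisplatin and 121 ± 2.83 FPKM in control (adjusted p = 0.000255), and Igfbp4 6.77 ± 0.812 FPKM after cisplatin and 10.1 ± 0.248 FPKM in control (adjusted p = 0.000512).

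Coreceptor genes were lower in 8 and higher in 3 of 12 tested (median log2 change -0.75). Cd44, whose product can act with MET at the membrane, averaged 28.0 ± 1.03 FPKM after cisplatin and 8.20 ± 0.167 FPKM in control (adjusted p = 1.14e-07). Flrt1, which encodes a membrane protein that binds FGF receptors, averaged 3.03 ± 0.376 FPKM after cisplatin and 12.3 ± 0.142 FPKM in control (adjusted p = 7.27e-07). The glypican gene Gpc6 had 14 fragments over the cisplatin and 839 over the control libraries.

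Adaptor and signal transducer genes were higher in 9 and lower in 16 of 32 tested (median log2 change -0.11). Gab2, a docking protein gene, averaged 0.399 ± 0.103 FPKM after cisplatin and 2.97 ± 0.034 FPKM in control. Its relative Gab1 averaged 4.41 ± 0.0925 FPKM after cisplatin and 9.46 ± 0.290 FPKM in control (adjusted p = 1.47e-06).

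Negative regulators were higher in 4 and lower in 10 of 18 (median log2 change -0.18). Socs2, which restrains growth hormone and IGF signalling, averaged 0.696 ± 0.0552 FPKM after cisplatin and 2.55 ± 0.173 FPKM in control. Ptprf, a receptor phosphatase gene, rose to 40.1 ± 2.54 FPKM after cisplatin, against 23.5 ± 0.414 FPKM in control (adjusted p = 5.43e-06). Nf1, which encodes a RAS inactivator, averaged 6.87 ± 0.101 FPKM after cisplatin and 9.59 ± 0.0374 FPKM in control (adjusted p = 3.86e-05).

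In the list of receptor processing and shedding, 3 of 10 genes were higher and 5 lower (median log2 change -0.19). The sheddase genes Adam10 and Adam17, whose products cut receptors such as MET and AXL at the cell surface, both fell. Adam10 averaged 32.0 ± 0.965 FPKM after cisplatin and 54.9 ± 2.09 FPKM in control (adjusted p = 1.98e-06), and Adam17 15.3 ± 1.01 FPKM after cisplatin and 25.7 ± 0.768 FPKM in control (adjusted p = 1.07e-05). Ncstn, a gamma-secretase subunit gene, averaged 15.4 ± 0.675 FPKM after cisplatin and 20.5 ± 0.437 FPKM in control (adjusted p = 8.31e-05).

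Of 37 further receptor tyrosine kinase genes, 16 had a row in the table used here and 13 were tested, 4 higher and 8 lower (median log2 change -0.26). The ephrin receptor gene Epha2 was higher in all cisplatin libraries, with 131, 130.4 and 128 FPKM, against 49.2, 49.3 and 49.1 FPKM in control libraries (adjusted p = 6.31e-08), a level above that of Axl after cisplatin. Epha4 also rose, with a log2 change of 0.91 (adjusted p = 1.01e-06), and Ephb6 fell, with a log2 change of -0.87 (adjusted p = 1.82e-06).

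The markers of the labelled line were mostly abundant: the keratin genes Krt8, Krt18 and Krt19 and the mesothelial genes Msln and Upk3b had high levels in all libraries, while Krt7 was near 0 and Lrrn4 low. Of the 7 tested, the keratins and Msln passed as higher (4) and Wt1, Upk3b and Lrrn4 as lower (3). Wt1, a mesothelial transcription factor gene, averaged 12.4 ± 0.598 FPKM after cisplatin and 45.1 ± 1.08 FPKM in control. Upk3b averaged 61.1 ± 4.76 FPKM after cisplatin and 81.6 ± 1.78 FPKM in control. Lrrn4 averaged 0.129 ± 0.0583 FPKM after cisplatin and 1.35 ± 0.108 FPKM in control, and entered the test through the control libraries alone. Krt7 had 6 fragments over the cisplatin and 84 over the control libraries and was not tested. The summed level of the 8 ovarian surface and mesothelial markers, most of it from Krt8, Krt18 and Krt19, was 2921 to 3259 FPKM in cisplatin and 2066 to 2098 FPKM in control libraries. Of 5 macrophage markers only Cd68, also a lysosomal gene of other cells, had a row, at 7.50 to 9.72 FPKM in cisplatin and 2.22 to 2.57 FPKM in control libraries. The fibroblast markers Dcn, Col1a1 and Col3a1, 3 of 5 listed, summed to 15.4 to 17.1 FPKM in cisplatin and 17.6 to 17.9 FPKM in control libraries, and Lum and Thy1 had no row. The fibroblast markers moved in opposite directions. Dcn averaged 9.90 FPKM after cisplatin and 12.8 FPKM in control, and Col1a1 5.93 FPKM after cisplatin and 4.90 FPKM in control. Col3a1, near 0 and not tested, had 269 fragments over the cisplatin and 1 over the control libraries. The part of the marker genes in the receptor changes was not tested. Nat10 itself had 6.92, 7.01 and 7.51 FPKM in cisplatin libraries and 6.36, 6.60 and 6.09 FPKM in control libraries. It passed as higher with a small log2 change of 0.15 (SE 0.053, limma adjusted p = 0.0346), where 40.1% of all tested genes passed as higher.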

How the data were processed

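Input and anti-ac4C IP libraries were made from rRNA-depleted, fragmented RNA of ID8 cells, per the labels' protocols. HISAT2, HOMER, fastp, FastQC and mm10 are named, without roles, per the submitters' processing notes; no source used here names the peak caller, the annotation or the strand setting. The authors deposited FPKM for 14852 genes in 6 input libraries with their own p-values and log2 fold changes, which were not used for calls. Their deposited peak table gives fold enrichment (a ratio of IP over input), a log2 difference between treatments, a p-value per peak, log10 p scores and counts of exon blocks. The planned correlation among members was not computed, since the libraries form 2 clusters. Peak positions were converted to counting from 1.

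Genes that reached 1 FPKM in 3 input libraries or more were fitted with limma 3.58.1 (R 4.3.3, eBayes with trend) on log2(FPKM + 1), 3 cisplatin against 3 control, Benjamini-Hochberg adjusted at 0.05. Whole fragments were recovered from FPKM steps for 14851 of 14852 genes (tolerance 0.0001) and used for depth and for voom as an alternative; intervals and floors from them cover counting error only. Gene spans matched 92.2% of tested genes by symbol, and promoter windows are RefSeq's. The fit was tested on simulated data in which far fewer genes changed than passed here, so that test does not cover changes this widespread. Same-numbered libraries showed no clear shared deviation: deviations from the group means correlated at 0.097, -0.116 and 0.043 for these pairs. With so few libraries this cannot settle whether the cultures were paired. Members, lists and alternatives were chosen with earlier results of these data known. Named genes were the members, Nat10 and the 3 tested genes per pathway list with the smallest adjusted p, of which 1 is not reported here; Airn, and the genes of the marker lists, were added for overlap and identity. Summaries and figures used Python 3.11.15 with pandas 2.3.3, scipy 1.17.1, numpy 2.4.6 and matplotlib 3.10.9.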

Additional observations from a re-analysis of the deposited data

How the results depend on the processing

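Under 13 alternative settings (12 for the low genes Insr, Fgfr2 and Tek, which a filter at 5 FPKM removes) no receptor changed direction. Axl, Igf1r, Igf2r, Insr, Pdgfra, Fgfr2 and Ddr1 kept their side of the threshold in all of them. Tek did too, but it had entered the main test through its cisplatin libraries alone. All settings that tested Tek, except the fit without a filter, used the genes of that same filter. Its calls there were fixed in advance and are no support, though they are included in the receptor counts below. Met lost its call in 5 of 6 fits that left out a library, with log2 changes of -0.18 to -0.10, and Fgfr1 gained one under 3 scalings. Of all genes, 9303 passed, 8817 to 9398 when a library was left out, and 5934 of the 7230 that remained with a filter at 5 FPKM, which tests fewer genes. With the replicate number as a block 9276 genes and the same 9 receptors passed. Receptor calls numbered 8 to 9 when a library was left out, and 6 of 7 tested with the filter at 5 FPKM. They numbered 10 with rescaling (9366 of all 11449 genes passed), quantile normalization (9331 of 11449) or voom (9474 of 11448). Counts for the 7 pathway lists moved by over 1.5 times in 2 cases, both with that filter. At an adjusted p of 0.01, 18 of 30 receptor peaks passed, beside 7174 of all 19049 peaks. With an absolute log2 difference of at least 1, 19 receptor peaks passed, beside 8129 of all 19049. Of the 25 receptor peaks with a fold enrichment of at least 2, 16 passed, beside 7812 of 17843 such peaks. With 3 libraries a group, single-gene permutation tests could not go below p = 0.1, and peaks have no replicate values.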
